A study of Rattus norvegicus with 12 samples.

Results

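Compound 6, which the labels list as an analogue of guanabenz, was compared with its vehicle DMSO in PC12 cells that had been induced to express a huntingtin fragment. The comparison rests on 6 of the 12 arrays in the series, 3 from cells given compound 6 at 10 µM for 48 h and 3 from cells given DMSO. PC12 is a line from a rat adrenal tumour of chromaffin cells, and all 12 samples come from cells of this line that carry a GFP-tagged exon-1 fragment of huntingtin with 74 glutamines. Both groups compared here had received doxycycline, the inducer of the fragment, at 1 µg/ml. Non-induced cells with DMSO and induced cells with compound 3, the other analogue, also at 10 µM for 48 h, made up the remaining 6 arrays. Replicates carry numbers in the labels, which do not name separate cultures. The p-values thus cover the spread among these arrays, and that spread may be technical. The labels do not say whether the line is a single clone or whether the fragment was measured on each array.

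Each array was hybridised with labelled RNA from 1 sample, and its values are log2 expression levels of transcript clusters, here called features. After control features were left out, 34422 of 68842 features were kept, those with a 12-array mean of at least 4.63 log2 units, the median of such means. These carried the names of 15313 genes. All differences are in log2 units, ± gives the standard error, and each group holds 3 arrays.

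Guanabenz is known as an agonist of alpha-2 adrenoceptors. It has also been studied for its binding to PPP1R15A, the stress-induced subunit that directs protein phosphatase 1 to the translation factor eIF2 alpha. When eIF2 alpha is phosphorylated, general translation slows and messages such as that of the transcription factor ATF4 are favoured, which raises genes of amino acid supply. Mutant huntingtin fragments with long glutamine tracts aggregate in cells, and the proteasome and the lysosome are the main routes by which cells degrade such proteins.

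The chromaffin identity of the cells was visible on the arrays, since 9 of 10 chromaffin markers listed were matched to the array and all 9 were above the level filter, tyrosine hydroxylase (Th) and the granins Chga and Chgb among them. The mean level of these 9 was 9.54 to 9.80 on the DMSO arrays and 9.61 to 9.89 on the compound 6 arrays. Of the markers of other cell types on the array, 3 of 7 for fibroblasts, 1 of 7 for macrophages and 3 of 6 for endothelium passed the filter. So did 4 of 4 for glia, 4 of 5 for adrenal cortex and 2 of 4 for hepatocytes. Among these markers 0 passed between compound 6 and DMSO. The filter alone thus did not set chromaffin markers apart. Their median percentile by level among all features was 92.3, and 38.9 to 59.5 for the other types. A DMSO array stood apart from the rest: on induced DMSO array 3 the GC-rich background probes averaged 7.52, against 7.09 to 7.27 on the other 11 arrays, and its 95th percentile was 10.09 against 10.18 to 10.32. The median within-group standard deviation was 0.09 in the induced DMSO group and 0.07 in the compound 6 group. In bulk RNA, fewer cells that express a gene and less of its RNA per cell cannot be told apart.

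The gene that passed at an adjusted p under 0.05 with compound 6 in the main fit was Vdr, the vitamin D receptor. This pass was lost in most of the other settings described below. Vdr is a nuclear receptor that binds the active hormone form of vitamin D and regulates genes together with retinoid X receptors. Its levels were 7.22, 7.37 and 7.45 on the DMSO arrays and 6.77, 6.80 and 6.70 on the compound 6 arrays. All compound 6 arrays lay below all DMSO arrays, with a gap wider than the range within either group. Vdr fell by 0.59 ± 0.06 (95% interval -0.72 to -0.46, limma adjusted p = 0.0234), which leaves 66.4% of the vehicle level. On the non-induced arrays Vdr stood at 7.43, 7.37 and 7.48, so the levels of both vehicle groups overlapped. Induction itself was followed by a difference of -0.08 (adjusted p = 0.496), which did not pass, and compound 6 cells lay 0.67 below non-induced cells (adjusted p = 0.000227).

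**Figure D1:**
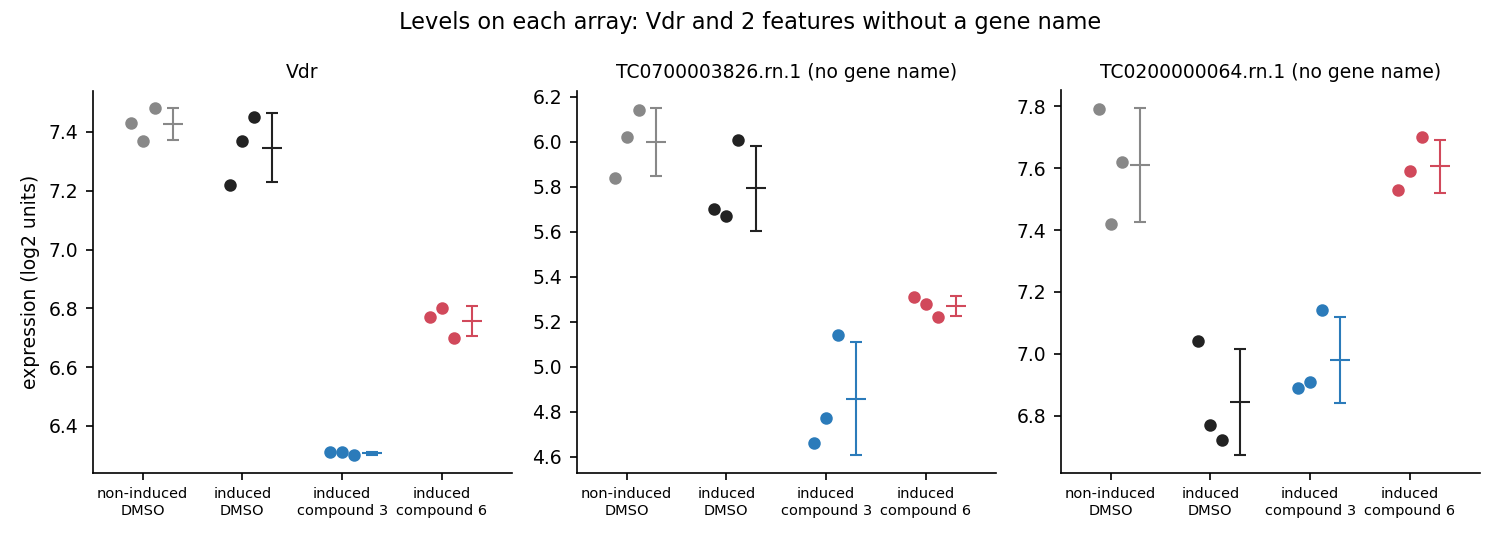
Expression in log2 units (vertical axis) on each of the 12 arrays, in 4 groups along the horizontal axis, for Vdr and for 2 features without a gene name. Points are arrays, and the marks to their right give the group mean and SD. The Vdr points of compound 6 lie at 6.70 to 6.80, between those of compound 3 (6.30 to 6.31) and those of both DMSO groups (7.22 to 7.48).

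Vdr is represented by 1 feature on this array. Its 250 bases before the transcription start, from RefSeq on GRCr8 (chr7:130916758-130917007, minus strand), are shown because Vdr carries the result of the comparison. The capitals mark the 2 matches to the GC box GGGCGG, searched on both strands, which begin 108 and 81 bases before the start. Of 33469 rat promoters of this length 30.5% hold at least 1 such match, so the motif is common. The CCAAT box, CCAAT on either strand, was not found in this window and occurs in 34.0% of promoters.
Vdr promoter: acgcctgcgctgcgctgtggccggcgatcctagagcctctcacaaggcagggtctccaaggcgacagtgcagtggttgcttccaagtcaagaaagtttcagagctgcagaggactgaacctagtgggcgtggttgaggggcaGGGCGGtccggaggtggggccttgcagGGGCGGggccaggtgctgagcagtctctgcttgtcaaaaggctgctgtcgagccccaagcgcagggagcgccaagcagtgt

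The size of the Vdr difference moved little between settings, from -0.65 to -0.54 over 22 alternatives, but its adjusted p did not stay under 0.05. The call held in 8 of the 22, among them all 3 other scalings of the arrays. The settings that lost it included the fit without a level filter (adjusted p = 0.0664) and the fit to only the 6 arrays compared (adjusted p = 0.893). The call was also lost with the replicate number as a block. So it was with the omission of any array other than induced DMSO array 1 (adjusted p from 0.0547 to 0.254). Without induced DMSO array 3, the array that stood apart, the difference was -0.54 (adjusted p = 0.085).

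The neighbouring identifier on the array, TC0700003826.rn.1, carries no gene name and was singled out after its values were seen. Its levels were 5.70, 5.67 and 6.01 with DMSO and 5.31, 5.28 and 5.22 with compound 6. These groups did not overlap, and the difference was -0.52 ± 0.13, but it did not pass (adjusted p = 0.796). Whether this feature and Vdr report the same transcript was not tested.

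The genes that work with the receptor did not pass. Of 16 measured genes of the vitamin D list 1, Vdr itself, fell and 0 rose, and 8 lay higher and 8 lower. The partner receptors Rxra, Rxrb and Rxrg differed by -0.03, -0.02 and 0.01. They and the vitamin D enzymes were named for their roles, outside the naming rule and with their values known. The 24-hydroxylase Cyp24a1, a well known target of the receptor that inactivates vitamin D, lay at -0.02 (95% interval -0.13 to 0.09). The 1-alpha-hydroxylase Cyp27b1, which makes the active hormone, lay at 0.08 (95% interval -0.04 to 0.20). Spp1, which encodes osteopontin, was at -0.11 (95% interval -0.22 to -0.01, adjusted p = 0.876). The DMSO means of Cyp24a1, Spp1 and Rxrg were 5.27, 5.03 and 4.71, not far above the level cut of 4.63. At such low levels these genes give little information on the output of the receptor.

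Over all 34422 features, Vdr was the only call in this setting, or 0.00291% of those tested, with 0 features higher. At an unadjusted p under 0.05 there were 1949 features, 5.66% of those tested, where 0.05 of all features comes to 1721, and 1181 of them lay lower and 768 higher. Among the 15313 named genes, each with its brightest feature, the share was 4.93%. In 2768 features, 8.04% of all, every array of one group lay on the same side of every array of the other.

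The 95% intervals give the precision of each difference on these arrays, taken 1 feature at a time and not for all features jointly. The 95% interval of a difference had a median half-width of 0.158. It lay wholly within a 1.5-fold change either way for 33917 features, 98.5% of those kept, and within a 2-fold change for 34391. Measured differences of 1.5-fold or more were found in 8 features, of which 7 were lower and 1 higher. Vdr was the member with a gene name. The widest fall, -1.02 in TC1400001613.rn.1, lay between DMSO arrays at 8.78, 10.29 and 9.37 and compound 6 arrays at 9.09, 8.06 and 8.23, groups that overlapped (adjusted p = 0.875). The 1 feature that was higher by this much, TC0200000064.rn.1, stood at 7.04, 6.77 and 6.72 with DMSO and at 7.53, 7.59 and 7.70 with compound 6, without overlap. Its difference of 0.76 ± 0.11 did not pass (adjusted p = 0.24), though it passed with array weights (0.81, adjusted p = 0.0462). Its non-induced levels were 7.79, 7.42 and 7.62. Both features have no gene name and were singled out after their values were seen.

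**Figure D2:**
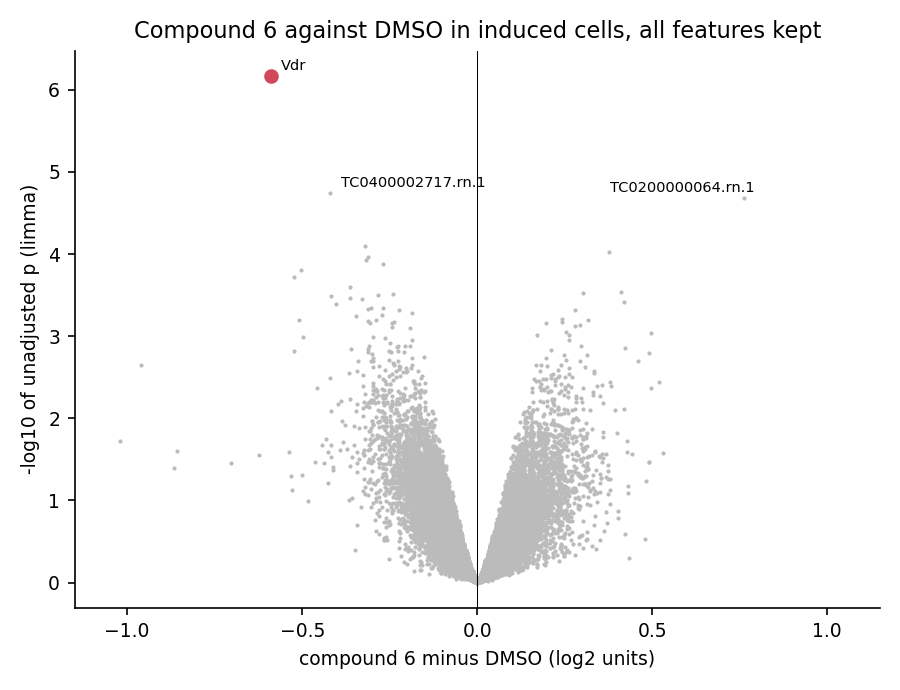
Difference between compound 6 and DMSO in induced cells (horizontal axis, log2 units) against -log10 of the unadjusted limma p (vertical axis) for 34422 features. The coloured point is Vdr, the 1 feature with an adjusted p under 0.05, at -0.59, and the other 2 labelled features did not pass.

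Below the threshold, the named genes with the smallest p give the next layer of the comparison, and none of these passed. The 10 that lay highest by p ranged from 0.17 to 0.38. Pdcl2, a phosducin-like protein, was at 5.95, 5.90 and 5.84 with DMSO and at 6.35, 6.14 and 6.33 with compound 6, a difference of 0.38 ± 0.06 (adjusted p = 0.565). Lzts1, a leucine zipper tumour suppressor, was at 6.78, 6.73 and 6.70 and then at 6.95, 6.94 and 6.91, a difference of 0.20 ± 0.04 (adjusted p = 0.629). In both genes every compound 6 array lay above every DMSO array, as in all 10, which were picked by p.

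Several of these genes act in the nucleus, a description that was not set against the share of such genes among all named genes. Tbl1xr1, a subunit of the NCoR and SMRT corepressor complexes through which unliganded nuclear receptors repress genes, stood at 8.45, 8.47 and 8.44 with DMSO and at 8.73, 8.55 and 8.71 with compound 6 (0.21 ± 0.05, adjusted p = 0.796). Fignl1, an ATPase of homologous recombination, lay at 7.75, 7.77 and 7.90 against 8.02, 7.95 and 8.04 (0.20 ± 0.05, adjusted p = 0.824). The forkhead factor Foxj3 and the zinc-finger gene Zfp9 differed by 0.17 and 0.18, with adjusted p = 0.832 for each. The others were the RING-finger gene Lonrf3 (0.17), Mfap3l (0.23), Etaa1l1 (0.31) and LOC102549747 (0.24).

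Among the 10 on the lower side, Vdr passed and the other 9 lay between -0.52 and -0.24, each with an adjusted p of 0.565 or 0.629. Syt5, a synaptotagmin of secretory vesicles, was at 9.21, 9.28 and 9.25 with DMSO and at 8.93, 9.01 and 8.86 with compound 6, a difference of -0.31 ± 0.05. Adm2, the peptide hormone intermedin of the calcitonin family, was at 8.26, 8.54 and 8.40 and then at 7.74, 8.15 and 7.78, a difference of -0.51 ± 0.11. Abca1, the transporter that exports cholesterol from cells, was at 5.96, 6.11 and 6.09 and then at 5.77, 5.65 and 5.80, a difference of -0.31 ± 0.07. In these 3 genes the groups did not overlap, as in all 10 on this side, which were picked by p. Igfbp6, which binds insulin-like growth factors, lay at -0.29, Cfc1, a co-receptor of Nodal signalling, at -0.27, and Gpd1, the cytosolic glycerol-3-phosphate dehydrogenase, at -0.24. The nucleolar gene Ccdc86 lay at -0.24, Apeg3 at -0.24 and LOC102555470 at -0.52.

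**Figure D3:**
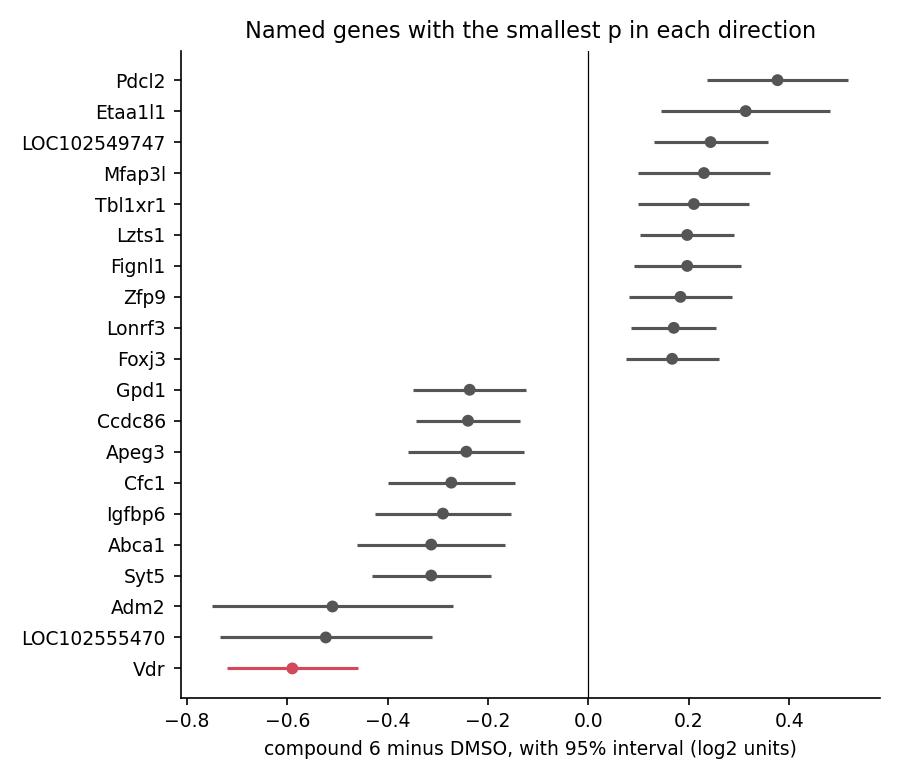
Difference between compound 6 and DMSO (horizontal axis, log2 units) for the 20 named genes with the smallest p, 10 in each direction. Points are the limma estimates and lines their 95% intervals. Vdr, in colour, passed at an adjusted p under 0.05, and the other 19 did not.

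The eIF2 alpha phosphatase pathway, in which guanabenz has been studied, showed 0 calls. Ppp1r15a, the stress-induced phosphatase subunit, was at 7.09, 7.15 and 7.11 with DMSO and at 7.01, 7.05 and 6.96 with compound 6. The groups did not overlap, yet the difference of -0.11 ± 0.05 (95% interval -0.21 to -0.01) did not pass (adjusted p = 0.876). Ppp1r15b, its constitutive counterpart, lay at -0.06 (95% interval -0.15 to 0.03). The stress factors Atf4 and Ddit3 lay at -0.02 (95% interval -0.12 to 0.08) and 0.03 (95% interval -0.16 to 0.22), and their signs changed between settings. The ER chaperone Hspa5 lay at -0.03 (95% interval -0.11 to 0.06). Of 15 genes of eIF2 alpha kinases, phosphatase subunits and the exchange factor eIF2B, 5 lay higher and 10 lower, with a median of -0.02 that was 0.003 after median scaling. The exchange factor subunits Eif2b4 and Eif2b5 lay at -0.11 and -0.10.

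Most targets of ATF4 lay slightly lower with compound 6. Of 35 measured genes, 29 were lower and 5 higher, 0 passed, and the median was -0.06, beside -0.01 over all 15313 named genes, of which 45.5% lay higher. The 3 members named by rule were Phgdh and Psph, enzymes of serine synthesis, and the stress protein Nupr1. Phgdh was at 9.87, 9.96 and 9.91 with DMSO and at 9.73, 9.81 and 9.70 with compound 6 (-0.17 ± 0.05, adjusted p = 0.832). Psph lay at -0.19 (adjusted p = 0.838) and Nupr1 at -0.14 (adjusted p = 0.875). Across the 18 alternatives the median of this list ran from -0.08 to -0.03.

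ER chaperones and the unfolded protein response gave a median of 0 over 25 genes, with 12 higher and 12 lower, and cytosolic heat shock proteins a median of 0 over 31, with 15 higher and 15 lower. Both medians were 0.03 after median scaling and below 0 after quantile normalisation. The members ranged from -0.11 to 0.05 and from -0.15 to 0.05. A list of adrenoceptors, imidazoline-site genes and the acid-sensing channel Asic3 had 8 members after the filter, which the alpha-2A receptor gene Adra2a did not pass. They differed by -0.09 to 0.01, with Adra2b, the alpha-2B receptor, at -0.05.

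The routes of protein clearance showed small differences. Of 33 proteasome subunits 30 lay lower and 3 higher, 0 passed, and the median was -0.08. At an unadjusted p under 0.05 there were 9, all lower, where this threshold takes in 4.93% of named genes and 5.66% of all features. Psmd8, a lid subunit, was at 9.45, 9.54 and 9.43 with DMSO and at 9.28, 9.33 and 9.15 with compound 6, without overlap (-0.22 ± 0.06, adjusted p = 0.832). The core subunits Psmb5 and Psmb4 lay at -0.18 (adjusted p = 0.859) and -0.16 (adjusted p = 0.875). Over 18 alternatives the list median stayed negative, from -0.11 to -0.04. Against non-induced cells, where 2644 of all features (7.68%) were called and 1231 of these were higher with compound 6, 4 of the 33 were called higher with compound 6 and 0 lower.

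Lysosomal and autophagy genes were near 0. Of 29 lysosomal hydrolases and membrane proteins 16 lay higher and 13 lower, with a median of 0.01 that was -0.0005 after cyclic loess. The lysosomal galactosidase Glb1, the membrane protein Lamp2 and the ceramidase Asah1 lay at 0.09, 0.09 and 0.12, each with an adjusted p of 0.882 or 0.883. The 15 proton pump genes had a median of -0.01, which was 0.01 after median scaling. Among 34 autophagy genes and their MiT/TFE regulators 22 lay lower and 12 higher (median -0.03), with the autophagosome proteins Map1lc3b and Map1lc3a at -0.10 (adjusted p = 0.876) and -0.11 (adjusted p = 0.882) and the cargo receptor Nbr1 at -0.09. The endogenous rat Htt feature lay at -0.02 (95% interval -0.24 to 0.20), with a sign that changed between settings.

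Genes of sterol synthesis showed 0 calls against DMSO. Of 8 genes from acetoacetyl-CoA to squalene 5 lay lower and 2 higher (median -0.08), and of 11 genes after squalene 8 lay lower and 3 higher (median -0.02, which was 0.003 after median scaling), with 0 called in either list. The isomerase Idi1 was at 8.04, 7.89 and 7.89 with DMSO and at 8.05, 7.70 and 7.83 with compound 6 (-0.08, 95% interval -0.26 to 0.10). The epoxidase Sqle was at 9.26, 9.15 and 9.08 and then at 9.30, 9.09 and 9.0 (-0.03, 95% interval -0.20 to 0.13). In both genes the groups overlapped. Mvd, Mvk and Acat2 of the early part lay at -0.13, -0.07 and -0.15, and Lss, Cyp51 and Tm7sf2 of the later part at -0.10, -0.08 and -0.13. In the list of sterol sensing, uptake and efflux, 11 of 18 lay lower (median -0.03), with Abca1 already described and the liver X receptors Nr1h3 and Nr1h2, which regulate Abca1, at -0.12 and -0.07. The 19 genes of fatty acid synthesis had a median of -0.03, which was 0 after median scaling.

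Division genes lay slightly higher. Of 41 genes of G2 and mitosis 26 were higher and 15 lower (median 0.05), and of 40 genes of DNA replication 33 were higher and 6 lower (median 0.05), with 0 called in both. Kif20b, a mitotic kinesin, was at 7.72, 7.63 and 7.54 with DMSO and at 7.84, 7.68 and 7.93 with compound 6 (0.19 ± 0.07, adjusted p = 0.875). Pola1, the catalytic subunit of DNA polymerase alpha, was at 8.49, 8.47 and 8.49 and then at 8.68, 8.53 and 8.78 (0.18 ± 0.07, adjusted p = 0.875). Kif18a, another mitotic kinesin, and the topoisomerase Top2a lay at 0.11 and 0.14, and the chromatin assembly factor Chaf1b and the clamp loader Rfc4 at 0.13 and 0.12. Both medians stayed positive over 18 alternatives, from 0.01 to 0.10 for mitosis and from 0.01 to 0.09 for replication.

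Chromaffin and neuronal genes showed 0 calls. Over 27 genes of catecholamine synthesis and chromaffin identity 15 lay higher and 11 lower, with a median of 0.01. The lineage factor Hand2 was at 9.23, 9.04 and 9.26 with DMSO and at 9.52, 9.24 and 9.39 with compound 6, groups that overlapped (0.21, 95% interval -0.03 to 0.44). The granin Scg2 lay at 0.22 and Gch1, an enzyme of tetrahydrobiopterin synthesis, at 0.14. Hand2, Scg2 and Gch1 were picked by rule in the direction of the list median. The chromaffin marker Dbh lay at -0.19 without overlap (95% interval -0.55 to 0.17, adjusted p = 0.955). On the non-induced arrays Hand2 stood at 10.16, 10.03 and 10.16, above all induced arrays, and compound 6 cells lay 0.73 below non-induced cells (adjusted p = 0.0025). Of these 27 genes 14 were called lower in compound 6 cells than in non-induced cells and 0 higher, where 7.68% of all features were called and 1413 were lower. The 33 neuronal differentiation genes had a median of -0.003, which was 0.02 after median scaling. The neurofilament gene Nefh lay at -0.13, the intermediate filament gene Vim at -0.12 and the tubulin Tubb3 at -0.07. They too were picked in the direction of the median, so members of this list that lay higher are not named. The 21 genes of the REST list had a median of 0.04, with the corepressor Rcor1 at 0.06 and the growth-cone gene Stmn2 at 0.10. The 28 immediate-early genes had a median of -0.003, with a sign that changed under the other scalings. In that list Arc, a synaptic plasticity gene, lay at -0.12 and the AP-1 subunits Fosl1 and Fosl2 at -0.22 and -0.12. The genes named from the REST and immediate-early lists were picked in the same way.

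Signalling and matrix lists held some of the wider single differences, and 0 of their members were called. Lgr5, a receptor of the Wnt pathway, was at 7.61, 7.54 and 7.45 with DMSO and at 7.99, 7.80 and 7.80 with compound 6 (0.33 ± 0.10, adjusted p = 0.838). Hes1, a Notch-regulated repressor, was at 5.97, 5.97 and 5.93 and then at 6.10, 6.15 and 6.18 (0.19 ± 0.06, adjusted p = 0.838). Its relative Hey1 lay at 0.19 (adjusted p = 0.883). In Lgr5 and Hes1 the groups did not overlap. Both were picked by rule for a small p, as was Psmd8 above, and 8.04% of all features did not overlap. The list that holds Lgr5 and Hes1, of Groucho corepressors and Wnt targets, had a median of 0.04 with 11 of 18 higher.

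Ddr2, a collagen receptor kinase, was at 4.99, 5.30 and 4.86 with DMSO and at 4.52, 4.76 and 4.50 with compound 6, without overlap (-0.46 ± 0.13, adjusted p = 0.832). Its non-induced levels were 4.22, 4.17 and 4.23, below both induced groups. These levels, and those of 4.52 and 4.50 with compound 6, lay under the level cut of 4.63. The Ddr2 difference was thus measured near this cut. Sparc, a secreted matrix glycoprotein, was at 9.24, 9.51 and 9.24 and then at 8.95, 9.34 and 8.94, groups that overlapped (-0.25, 95% interval -0.52 to 0.02). Its non-induced levels were 7.68, 7.71 and 7.69, and it lay 1.38 higher in compound 6 cells than there (adjusted p = 0.000227). The gelatinase Mmp2 lay at -0.20 (adjusted p = 0.875), and the matrix list as a whole had a median of -0.03 over 35 genes, which was 0 after median scaling.

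The MAP kinase phosphatase Ptprr was at 6.89, 6.78 and 6.82 with DMSO and at 6.67, 6.60 and 6.69 with compound 6, without overlap (-0.18 ± 0.06, adjusted p = 0.875). Of the same feedback list Spry1, an inhibitor of receptor kinase signalling, lay at -0.20 (adjusted p = 0.859) and the transcription factor Etv5 at -0.15. The list median was -0.01 over 22 genes and 0.01 after median scaling. The calcium-activated potassium channel Kcnn3 was at 8.86, 8.57 and 8.93 and then at 9.37, 8.76 and 9.28, groups that overlapped (0.35 ± 0.16, adjusted p = 0.879). It was picked in the direction of the channel list's median of 0.01. Kcnk3 of the same list lay at -0.13, without overlap (adjusted p = 0.875). Among 20 cAMP and CREB genes the median was 0.04, with the kinase subunit Prkar2b at 0.14 and the kinase Sik2 at 0.12.

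The remaining lists had 0 calls and medians between -0.05 and 0.04. They cover NRF2 targets, metal handling, the BCL2 family, p53 targets, oxidative phosphorylation, mitochondrial and cytosolic ribosomes, glycolysis, neuropeptides, potassium channels, interferon response, huntingtin partners and genes lowered in Huntington disease models. NRF2 targets lay lower in 21 of 29 (median -0.03), with the NRF2 inhibitor Keap1 at -0.14 and Nfe2l2, which encodes NRF2, at -0.08. Metal-handling genes lay higher in 10 of 12 (median 0.03), where the metallothionein Mt2A was at 0.24 with a wide interval of -0.13 to 0.61. Interferon and antigen presentation genes lay higher in 14 of 19 (median 0.04), with B2m, the light chain of MHC class I, at 0.09. All 3 medians kept their sign over 18 alternatives.

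**Figure D4:**
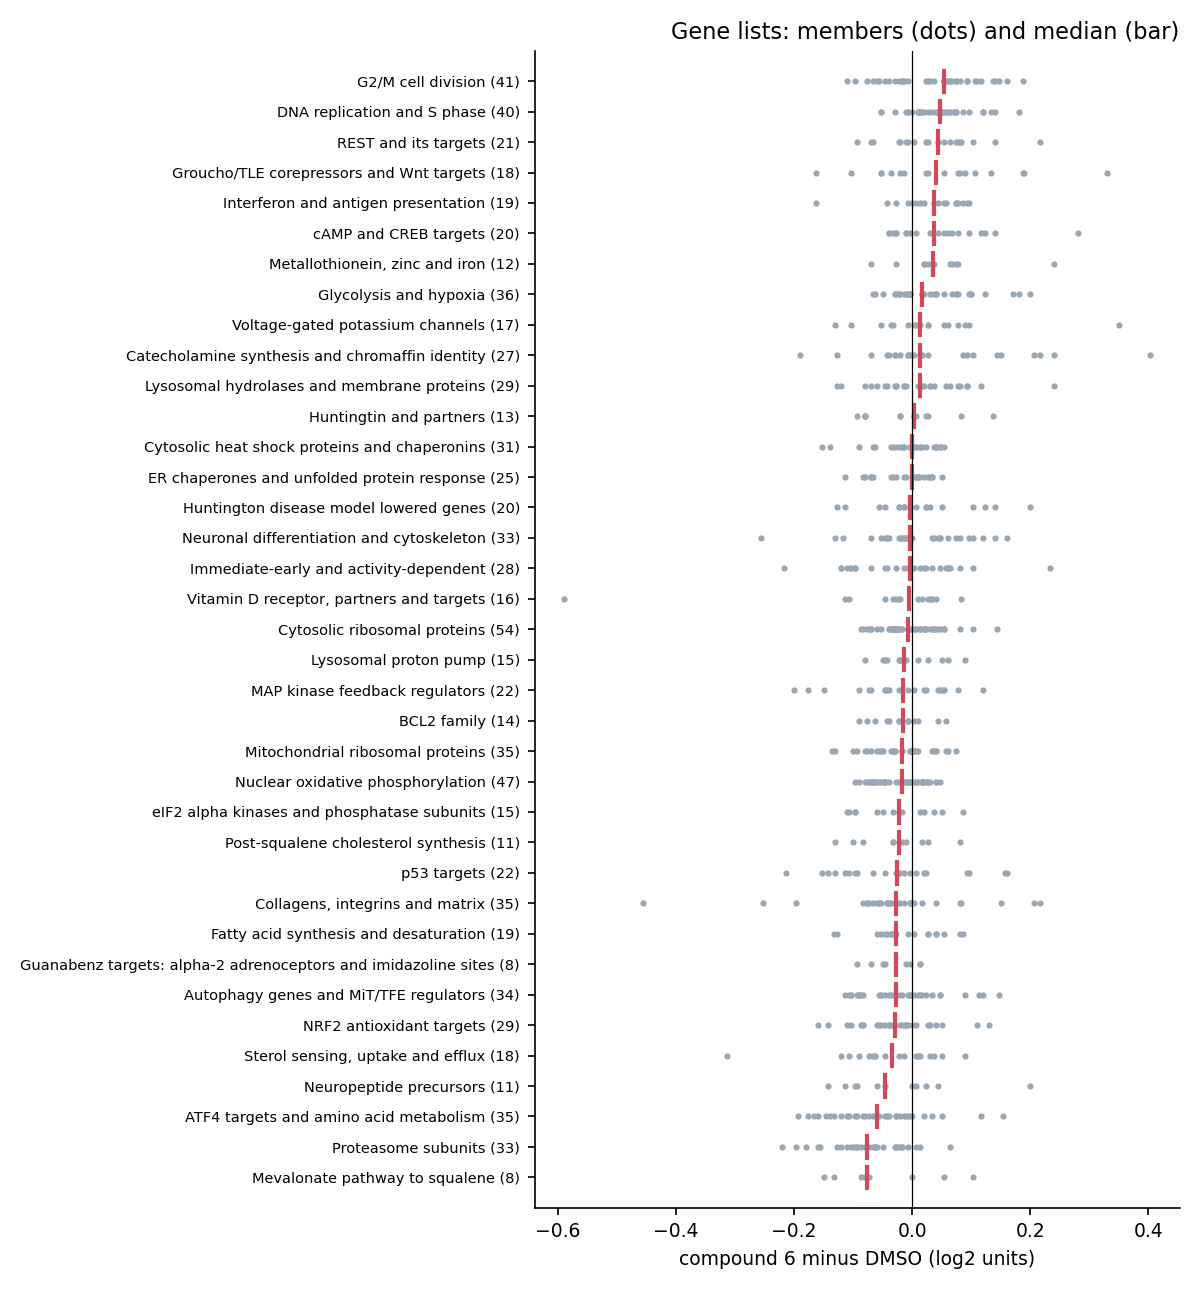
Difference between compound 6 and DMSO (horizontal axis, log2 units) for the members of 37 gene lists (vertical axis, number of measured genes in brackets). Dots are genes, and the coloured bar is the list median. Medians run from -0.08 for the mevalonate and proteasome lists to 0.05 for mitosis and replication, and the dot farthest to the left is Vdr at -0.59.

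Compound 6 and compound 3 were given at the same dose for the same time, and their arrays were compared directly as 1 pair. Of 34422 features 15 differed at an adjusted p under 0.05, or 0.0436%, with 8 higher and 7 lower in compound 6 cells. Vdr was 0.45 ± 0.06 higher with compound 6 (95% interval 0.32 to 0.58, adjusted p = 0.0426). Its compound 3 levels of 6.31, 6.31 and 6.30 were all below those with compound 6, and against DMSO, whose arrays both compounds share, compound 3 lay at -1.04 beside -0.59 for compound 6. The compounds therefore differed in how far Vdr lay below the vehicle level, 66.4% remaining with compound 6 and 48.6% with compound 3.

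Among the genes lower with compound 6 than with compound 3 were 3 of sterol synthesis. Idi1 was at 8.56, 8.50 and 8.43 with compound 3, a difference of -0.64 ± 0.08 (95% interval -0.82 to -0.45, adjusted p = 0.0426). Sqle was at 9.74, 9.59 and 9.67 (-0.54 ± 0.08, adjusted p = 0.049996), and Tm7sf2, a sterol reductase, stood at 7.83, 7.69 and 7.90 against 7.36, 7.29 and 7.11 with compound 6 (-0.55 ± 0.07, adjusted p = 0.0426). In these genes no compound 6 array reached the lowest compound 3 array. All 11 genes after squalene lay lower with compound 6 (median -0.41, 2 called), as did 7 of 8 before it (median -0.26, 1 called), beside 52.1% of all named genes. Cyp51, the lanosterol demethylase, lay at -0.60 and did not pass (adjusted p = 0.0597).

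The integrin Itga1, a collagen receptor, was higher with compound 6, at 7.58, 7.48 and 7.74 against 6.92, 6.89 and 6.70 with compound 3 (0.76 ± 0.08, 95% interval 0.58 to 0.94, adjusted p = 0.023). Against DMSO, at 7.43, 7.48 and 7.44, compound 6 lay at 0.15 (95% interval -0.03 to 0.33) and did not pass. Outside the naming rule, and chosen after their values were seen, the corepressor Tle3 (0.42, adjusted p = 0.0426) and the Rac exchange factor Tiam2 (0.39, adjusted p = 0.049996) were higher with compound 6 too. Another 7 called features have no gene name. Among them TC1500001407.rn.1 was at 6.91, 6.65 and 6.65 with compound 6 and at 8.01, 7.86 and 7.98 with compound 3 (-1.21 ± 0.08, adjusted p = 0.000306). TC0200002940.rn.1 and TC0200002941.rn.1 have identifiers next to that of Itga1, and whether they report it was not tested.

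Ptprr and the potassium channel gene Kcnh3, with differences of 0.37 (adjusted p = 0.0855) and 0.34 (adjusted p = 0.108) between the compounds, did not pass. For Ppp1r15a the compounds differed by -0.12, which did not pass (adjusted p = 0.47). Chromaffin genes lay higher with compound 6 than with compound 3 in 24 of 27, and 0 of these were called. Their median was 0.32, beside -0.01 over all named genes. Against DMSO, the median of this list was 0.01 with compound 6. The markers Th, Chga and Chgb lay at 0.24, -0.02 and 0.003 against DMSO with compound 6. With compound 3 they lay at -0.51, -0.37 and -0.29, and the marker Gata3 at 0.03. Proteasome genes lay lower with compound 6 than with compound 3 in 33 of 33 (median -0.11), beside 52.1% of all named genes, again with 0 called. These calls were less stable than the sizes behind them: of the 15, TC1500001407.rn.1 passed in all 21 alternatives that measured it, Itga1 in 15 of 22, Vdr in 10, Idi1, Tm7sf2 and Tle3 in 9 each, Sqle in 8, and Tiam2 in 7.

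**Figure D5:**
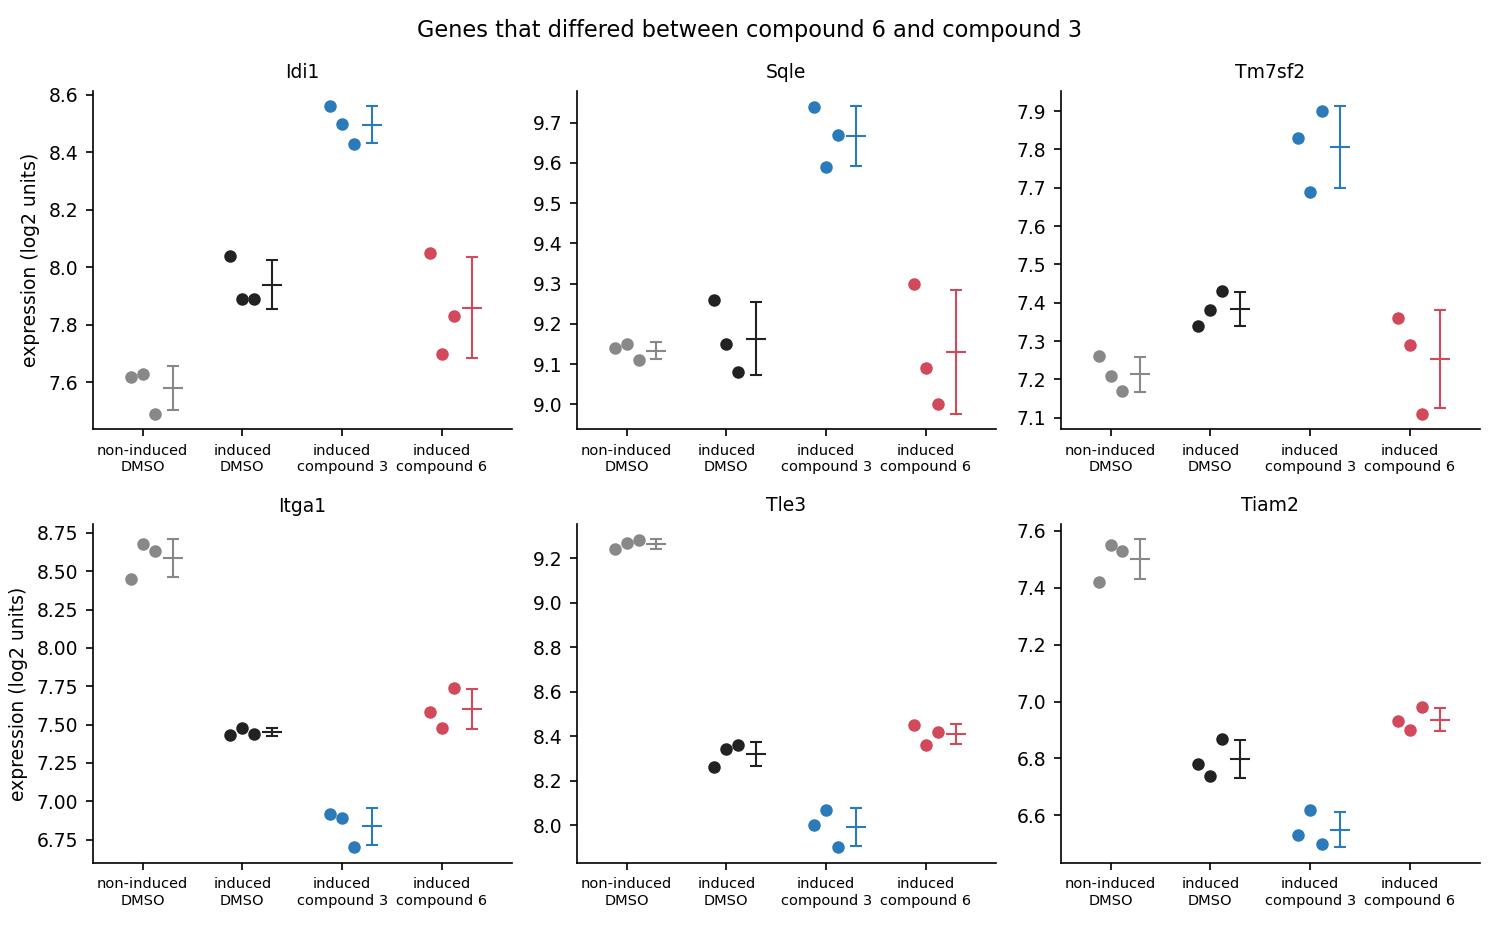
Expression in log2 units (vertical axes) on each array in 4 groups for 6 genes that passed in the comparison of compound 6 with compound 3. Points are arrays, and the marks to their right give the group mean and SD. In Idi1, Sqle and Tm7sf2 the compound 3 arrays lie above all others, in Itga1, Tle3 and Tiam2 they lie below all others, and the compound 6 arrays overlap or meet those of induced DMSO in each gene but Tiam2, where they lie at 6.90 to 6.98 against 6.74 to 6.87.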

How the data were processed

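Total RNA from 12 PC12 samples, 250 ng each, was turned into biotin-labelled targets for Affymetrix rat transcriptome arrays, per the labels' protocols. The deposited values are log2 expression summaries, from 0.95 to 13.82, made with RMA in Affymetrix Expression Console per the submitters' processing notes, in versions and with options not given in the sources used here. From these, limma 3.58.1 in R 4.3.3 fitted the mean of each of the 4 groups over the 12 arrays together (lmFit and eBayes, 8 residual degrees of freedom, prior 3.27), and p-values were adjusted by the Benjamini-Hochberg method over all 34422 features kept. A feature was called at an adjusted p under 0.05. The 1738 control features left out were those of the array's own standards. Symbols came from the platform annotation and were checked against RefSeq gene names (GRCr8): 23446 of 68842 features had 1 symbol, 505 several and 44891 none. Several features of a gene were reduced to the one with the highest mean for the lists.

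The named genes were those with the smallest p (10 a direction), up to 3 from each of 37 lists in the direction of its median, and 13 set singly. The comparison, the lists and this rule were chosen with earlier results of these data known. Lists are described by counts and medians, with no set test. No 2 arrays held identical values (0 pairs). Precision is limited by 3 arrays a group. The model was also run on data simulated from the feature means and residual spreads of these arrays, and its recovery of added changes is not given here. The main fit did not pair samples by replicate number. Arrays numbered 1 correlated positively with each other across groups in their deviations from the group means. Alternatives were other filters, scalings and variance models, array weights, the replicate block, smaller sample sets and leaving out each array. Of the genes called between the compounds, 1 is not reported here.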

Additional observations from a re-analysis of the deposited data

How the results depend on the processing

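The count of features called for compound 6 against DMSO was 1, which was Vdr, also with the 75th percentile filter, the 3 other scalings, the intensity trend, features with 1 symbol alone and a minimum change of 1.5-fold. It was 0 without a filter, with the replicate block and with only the 6 arrays compared, and 3 with array weights, which added the unnamed TC0200000064.rn.1 (higher) and TC0400002717.rn.1 (lower). With the replicate block Vdr was at -0.59 (adjusted p = 0.127). Leaving out 1 array gave 0 to 1. Unadjusted p-values under 0.05 numbered 3488 of 68842 features without a filter, 2282 with the block and 1351 with the 6 arrays. They numbered 4516 with array weights, beside 1949 of 34422 in the main fit. With 1 array left out they numbered 1144 to 3960, the highest without induced DMSO array 1. This count was thus not stable between settings.

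For compound 6 against compound 3 the count of 15 became 2 without a filter, 6 after median scaling, 133 with array weights, 1 with the 6 arrays, 135 with features with 1 symbol alone and 45 with the replicate block, of which 13 were among the 15. Leaving out 1 array gave 1 to 9. Same-numbered arrays of compound 6 and DMSO correlated at 0.382, 0.074 and -0.169 in their deviations from the group means. Over all groups such pairs ran from -0.169 to 0.452, and pairs with other numbers from -0.464 to 0.42. The pairs of arrays numbered 1 were all positive, from 0.219 to 0.452. Whether same-numbered arrays were handled together was not tested.

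Of 129 named genes 123 kept their sign in all alternatives run. The exceptions follow, each with its range over leaving out 1 array. Atf4 was 0.0067 after median scaling and ranged from -0.0433 to 0.0067. Ddit3 was -0.0226 with array weights and ranged from -0.0467 (without induced DMSO array 3) to 0.0783. Htt was 0.0067 after median scaling and ranged from -0.0717 to 0.0233. Sqle ranged from -0.1183 to 0.0317 (without compound 6 array 3) and was 0.015 without induced DMSO array 1. Adrb1 ranged from -0.1467 to 0.0083 and was 0.0017 without compound 6 array 3. Trip10 ranged from -0.0083 (without compound 6 array 1) to 0.055. Besides Vdr, 0 of the named genes passed in any alternative. Of 37 list medians 25 changed sign or met 0 in at least 1 alternative, and the cause was not tested.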
